A study of Mus musculus with 2 samples.

Results

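The kidney inner medulla is bathed in fluid far saltier than plasma, and its cells balance that salt by holding small uncharged solutes, the organic osmolytes sorbitol, myo-inositol, betaine, taurine and glycerophosphocholine. Aldose reductase makes sorbitol from glucose, and dedicated sodium-coupled transporters bring in the others. NFAT5, also called TonEBP, is the transcription factor that raises these genes when the surroundings become hypertonic. The 8 genes described here are aldose reductase *Akr1b3*, its relatives *Akr1b7*, *Akr1b8* and *Akr1a4*, the myo-inositol transporter *Slc5a3*, the taurine transporter *Slc6a6*, the betaine transporter *Slc6a12*, and *Nfat5*. They were chosen by symbol, with earlier results of these data known. All 8 were found among the 31829 gene names of the array design. They had 10 of its 39429 gene probes and 28 of 43020 gene spots per array.

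Whole kidney RNA of 2-month-old mice that lack *Cnnm2*, a membrane protein linked to renal magnesium handling, was compared with that of control mice on 2 Agilent 4x44K two-color arrays. The knockout mice were Cnnm2fl/fl;*Six2-Cre* and the controls *Cnnm2*+/+;*Six2-Cre*, so that both carried the Cre transgene, and neither was treated. *Six2-Cre* drives a GFP-fused Cre recombinase in nephron progenitors of the embryonic kidney, so deletion is expected in nephron epithelia and not in collecting duct, vessels or stroma. The second array repeated the comparison with the dyes exchanged: knockout RNA was in Cy5 on array 1 and in Cy3 on array 2. How many mice gave the RNA is not given in the sources used here, and nothing says that the arrays carried different RNA, so each genotype was counted as 1 replicate, and no result below rests on a test between genotypes. Each value below is a log2 ratio of knockout over control. SD (n = 2 arrays) is the spread of the dye-swapped arrays and is not read as variation between mice.

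*Cnnm2* itself checked the dye labels, with ratios of -2.88 on array 1 and -2.46 on array 2. A gene was considered when, in at least 1 genotype, a probe stood well above background on each array, which held for 19708 genes, and was represented by its brightest probe. A gene passed the size rule when its mean ratio was at least 2-fold and the direction was shared by both arrays. Over these genes the ratios of the arrays correlated negatively (Pearson r = -0.51, across genes, which are not independent replicates), and 27.7% of genes moved one way under both dye orders. The part that follows the dyes, which is the difference of the arrays' ratios divided by 2, had an SD of 0.40 over genes, against 0.23 for the mean ratio. Proximal tubule, thick ascending limb, principal cell, inner medulla and podocyte markers (5, 4, 6, 5 and 4 genes) were all well above background. In whole tissue, fewer cells of a type and less RNA per cell cannot be told apart.

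Of the 8 genes, only *Akr1b3* passed the size rule, and it was higher in the knockout. Over all genes considered, 0.315% passed it higher and 0.284% lower. The processed signals of knockout and control did not overlap for 3 of the 8 genes, *Akr1b3*, *Akr1b7* and *Slc6a12*, against 11.3% of all genes. Both arrays agreed in direction for 4 of the 8, these 3 and *Akr1b8*. For the other 4 the directions differed, which by definition makes the dye part larger than the mean ratio. The 7 other genes had mean ratios no farther than 0.52 from 0. In order of mean ratio they were *Slc6a12*, *Akr1b8*, *Akr1a4*, *Nfat5*, *Slc6a6*, *Slc5a3* and *Akr1b7*, and each overlapped its neighbor in this order in the range of its 2 array values. Only the step from *Slc6a12* up to *Akr1b3* left a gap between the ranges.

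**Figure D1:**
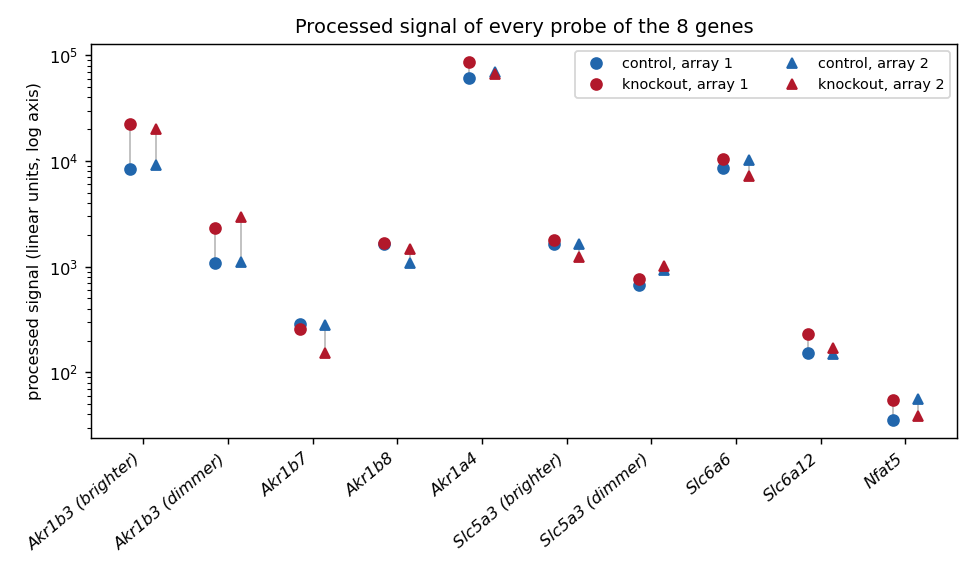
Processed signal (linear units on a log axis) of each probe of the 8 genes, with knockout in red, control in blue, array 1 as circles and array 2 as triangles, and gray lines joining the genotypes on 1 array. Both *Akr1b3* probes have both knockout points above both control points, while *Akr1a4*, *Slc5a3*, *Slc6a6* and *Nfat5* change order or come close between arrays.

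The sequences of the *Akr1b3* and *Slc5a3* probes that lie nearer the 5' end of the transcript are shown here because these are the only 2 of the 8 genes with a second probe, and each repeats a reading of its gene by a separate oligonucleotide. They are the 60-base probes printed on the array, read from the scanner files, and coordinates are on mm9. The first lies at chr6:34260573-34260632, on the minus strand, and starts at base 516 of its transcript. The second lies at chr16:92079366-92079425, on the plus strand, and starts at base 2560. Each has 1 of 3 reading frames free of stop codons.
Akr1b3: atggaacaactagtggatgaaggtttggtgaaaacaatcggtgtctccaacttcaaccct
Slc5a3: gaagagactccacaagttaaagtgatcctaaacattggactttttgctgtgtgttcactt

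*Akr1b3* encodes aldose reductase, which reduces glucose to sorbitol in the first step of the polyol pathway. Its brighter probe, at chr6:34253930-34253982 and base 1238 of the transcript, read 22210 in the knockout and 8434 in the control on array 1. On array 2 the same probe read 20022 in the knockout and 9148 in the control. Its knockout signals were thus above both control signals under either dye. The ratios of 1.40 and 1.13 gave a mean of 1.26 ± 0.19 (SD, n = 2 arrays), or 2.40-fold.

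The second *Akr1b3* probe, 6643 bases away in the genome and shown above, read 2330 against 1089 on array 1 and 2935 against 1105 on array 2. Its ratios were 1.097 and 1.41, with a mean of 1.25 ± 0.22 (SD, n = 2 arrays). The 2 probes leaned to opposite dyes, by 0.13 toward Cy5 for the brighter and by -0.16 for the other, and their mean ratios differed by 0.01. Among the 3914 genes with 2 probes well above background in both genotypes, 29.7% had mean ratios that differed by under 0.05, and the median difference was 0.10.

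In the ranking of all 19708 genes by mean ratio, *Akr1b3* came 32nd from the highest. Of the 1585 genes at least as bright, 1 had a higher mean ratio, and 2, *Akr1b3* included, passed the size rule. Within 0.5 log2 units of its signal lay 976 genes, *Akr1b3* included, and none of the others had a higher ratio. Their mean ratios had an SD of 0.17 and their dye parts an SD of 0.27. *Akr1b3* thus had the highest ratio among genes of like signal, and 30 of the 31 genes ranked above it were dimmer.

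**Figure D2:**
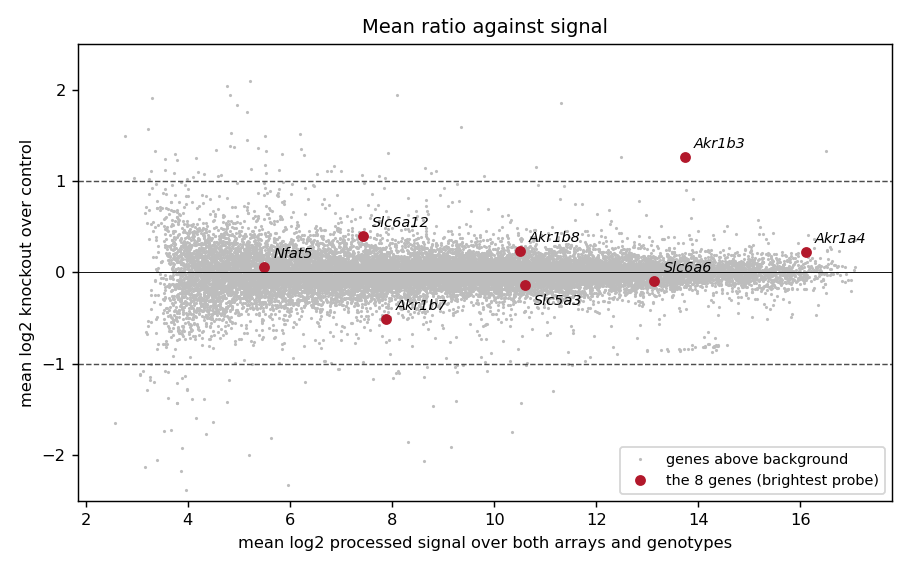
Mean log2 knockout over control (both arrays) against mean log2 processed signal, for 19708 genes in gray and the 8 genes in red, with dashed lines at 2-fold. The spread narrows with signal, and *Akr1b3* lies at 1.26 with 1 brighter gene, *COX1*, above it at 1.33. 7 genes lie beyond the axis limits of 2.5.

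The 5 genes with the pair of ratios nearest to that of *Akr1b3*, by Euclidean distance over the 2 arrays, were *Gulo*, an unnamed transcript (probe A_55_P2013591), *Calml3*, *Fgb* and the mitochondrial *COX1*. Their distances were 0.06, 0.22, 0.23, 0.25 and 0.26. With 2 arrays of 1 comparison, such a likeness describes 2 numbers per gene.

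The relatives of *Akr1b3* lie beside it on chromosome 6. *Akr1b8* and *Akr1b7* encode enzymes of the same subfamily that reduce lipid-derived and other aldehydes, with *Akr1b7* best known from steroid-making cells, vas deferens and renin cells. On mm9 the order of the probes was *Akr1b3*, *Akr1b8* at chr6:34318338-34318397, *Akr1b10* and *Akr1b7* at chr6:34372905-34372964. The neighbors outside this group, *Slc35b4* on one side and *Bpgm* on the other, had mean ratios of -0.08 and -0.01.

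*Akr1b8* was printed 10 times on each array, which gives the error of a single spot. Its knockout and control signals were 1683 and 1645 on array 1, and 1470 and 1083 on array 2. The ratios were 0.03 and 0.44, with a mean of 0.24 ± 0.29 (SD, n = 2 arrays). Over the 10 spots the ratio ran from 0.01 to 0.06 on array 1 and from 0.42 to 0.48 on array 2, with SDs of 0.02 on each. The arrays thus differed from each other by far more than spots of 1 array did, and the knockout signal on array 2 was below the control signal on array 1. *Akr1b10*, between *Akr1b8* and *Akr1b7*, had ratios of 0.07 and 0.22.

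*Akr1b7* was the lowest of the 8 genes and the only one with both ratios below 0. Its signals were 256 in the knockout and 284 in the control on array 1, and 153 and 282 on array 2. Both knockout signals were below both control signals, but at 0.900 of the control on array 1 and 0.544 on array 2, so that the size of the difference rested mostly on the second array. The ratios were -0.15 and -0.88, with a mean of -0.52 ± 0.51 (SD, n = 2 arrays), and 338 of the 19708 genes had lower means. The probes named *Ren1* and *Ren2* mark a cell type that can hold *Akr1b7*. Their ratios were -1.004 and 0.11 for *Ren1* and -1.09 and -0.55 for *Ren2*. Whether these 2 probes read separate genes in these mice was not tested. Their summed signal was 4408 and 4054 in the knockout and 9346 and 5696 in the control. Of 7 adrenal cortex markers, *Cyp11a1*, *Cyp11b1*, *Cyp11b2* and *Mc2r* were not above background, and the summed signal of all 7 was 166 to 190 in the knockout and 178 to 196 in the control. The part of either cell type in the *Akr1b7* ratio was not tested.

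*Akr1a4*, named *Akr1a1* in RefSeq, encodes aldehyde reductase, which turns glucuronate into gulonate on the way to ascorbate in mice. Its probe matched 60 bases spread over 187 bases of the minus strand, chr4:116310395-116310581, and so crosses a splice junction. It was the brightest of the 8 genes, with 86754 in the knockout and 61635 in the control on array 1, and 66828 and 69398 on array 2. Knockout and control exchanged order between the arrays. The ratios of 0.49 and -0.05 gave a mean of 0.22 ± 0.39 (SD, n = 2 arrays).

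*Gulo*, the gulonolactone oxidase that catalyzes the last step of ascorbate synthesis, passed the size rule, alone among the 4 ascorbate genes besides *Akr1a4*. Its signals were low: 134 and 109 in the knockout on arrays 1 and 2, and 48.9 and 49.8 in the control. The ratios were 1.46 and 1.12, with a mean of 1.29 ± 0.23 (SD, n = 2 arrays). With a background correction that adds an offset of 50 to each signal, the mean of *Gulo* was 0.42, whereas that of *Akr1b3* was 1.25. The other 3, *Ugp2*, *Ugdh* and *Rgn*, which supply UDP-glucose, UDP-glucuronate and gulonolactone, had means of 0.15, 0.02 and 0.06.

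Downstream of *Akr1b3*, the polyol pathway and fructose breakdown showed no gene past the size rule, and the median of the 5 genes was -0.01 (0.07 on array 1 and -0.01 on array 2), against -0.01 for all genes. *Sord*, the dehydrogenase that oxidizes sorbitol to fructose, had ratios of 0.28 and -0.33. Its mean of -0.03 thus came from array values that followed the dyes. *Khk* and *Dak*, kinases of fructose and of a triose made from it, had means of 0.03 and -0.03, and the fructose transporter *Slc2a5* had -0.01.

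Among 12 other aldo-keto reductases on the array, 11 were above background and none passed the size rule, with a median of 0.00 (0.07 on array 1 and -0.14 on array 2) and a range from -0.24 for *Akr1c13* to 0.46 for *Akr1c18*. *Akr1c18*, which reduces progesterone, had 0.32 and 0.60. None of the 11 came within the range of the *Akr1b3* ratios.

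**Figure D3:**
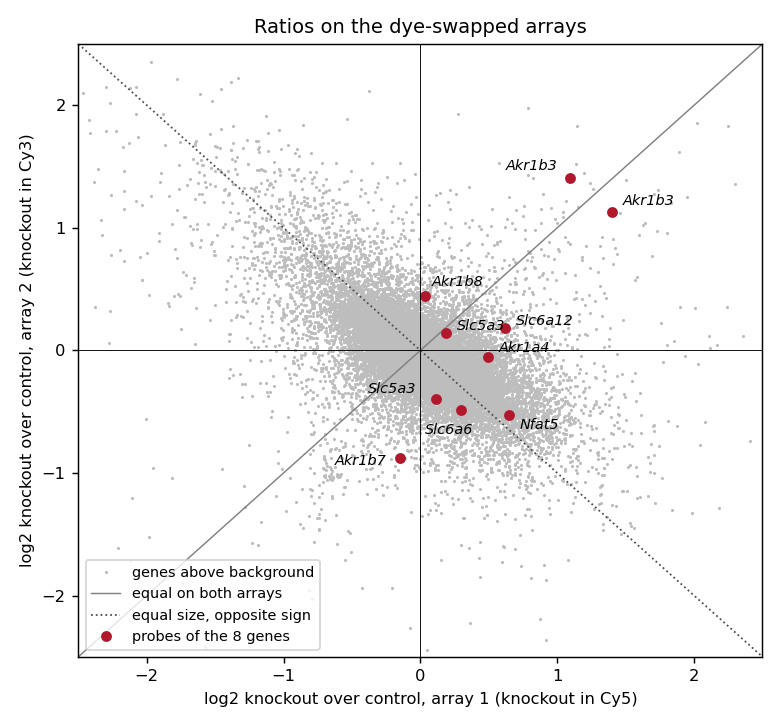
Log2 knockout over control on array 1 against array 2 for 19708 genes in gray and the 10 probes of the 8 genes in red. The gray cloud runs along the dotted line of equal size and opposite sign, the dye pattern, whereas both *Akr1b3* probes lie near the solid line of equal ratios, and 58 genes lie beyond the axis limits of 2.5.

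The osmolyte transporters showed no value past the size rule. *Slc5a3* encodes the sodium and myo-inositol cotransporter. Its brighter probe, at chr16:92087281-92087340 and base 10475 of a long transcript, read 1790 in the knockout and 1651 in the control on array 1, and 1240 and 1628 on array 2. The genotypes changed order with the dyes, and the ratios of 0.12 and -0.39 gave a mean of -0.14 ± 0.36 (SD, n = 2 arrays).

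The second *Slc5a3* probe, printed 10 times per array and shown above, read 769 against 675 on array 1 and 1017 against 923 on array 2. Its ratios were 0.19 and 0.14, with a mean of 0.16 ± 0.03 (SD, n = 2 arrays). Over spots, the ratio ran from 0.15 to 0.24 on array 1 and from 0.10 to 0.20 on array 2. The means of the 2 probes were opposite in sign and differed by 0.30, a difference that 10.2% of genes with 2 such probes reached or passed. The direction of *Slc5a3* was thus not settled by these arrays, and neither probe came near 2-fold.

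*Slc6a6* encodes the taurine transporter. Its probe at chr6:91708620-91708679 read 10535 in the knockout and 8572 in the control on array 1, and 7253 and 10169 on array 2. The Cy5 signal was the higher one on both arrays. The ratios of 0.30 and -0.49 gave a mean of -0.09 ± 0.56 (SD, n = 2 arrays), with a dye part of 0.39.

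*Slc6a12* encodes the betaine and GABA transporter BGT1. Its probe at chr6:121315541-121315600 read 232 in the knockout and 151 in the control on array 1, and 170 and 150 on array 2. Both knockout signals were above both control signals, by a small margin on array 2. The ratios of 0.62 and 0.18 gave a mean of 0.40 ± 0.31 (SD, n = 2 arrays), or 1.32-fold, and rank 528 from the highest of all genes. Among the 1840 genes within 0.5 log2 units of its signal, 52 had a higher mean.

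Genes that make or break down the transported osmolytes gave no call. None of 8 myo-inositol genes passed the size rule (median -0.08, with -0.01 on array 1 and 0.06 on array 2), and *Miox*, which oxidizes myo-inositol in proximal tubule, had -0.60 and 0.42. None of 10 betaine and glycerophosphocholine genes passed (median -0.07, with -0.19 on array 1 and 0.10 on array 2). *Bhmt*, which uses betaine to methylate homocysteine, was the lowest of them with ratios of -0.84 and -0.43, a mean of -0.64, and its other probes had means of -0.61 and -0.55. All 3 *Bhmt* probes were thus lower in the knockout on both arrays, short of 2-fold. Of 5 taurine genes, 4 were above background and none passed (median 0.04, with 0.30 on array 1 and -0.20 on array 2). *Csad*, which makes the precursor of taurine, had the highest mean of them, 0.36. Of the Slc6 relatives, *Slc6a8* and *Slc6a13*, carriers of creatine and GABA, had means of -0.08 and 0.05, and *Slc6a11* was not above background. The 5 *Lrrc8* subunits of the volume-regulated anion channel, through which swollen cells release osmolytes, ranged from -0.15 for *Lrrc8b* to 0.29 for *Lrrc8c*.

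*Nfat5* encodes the tonicity-responsive factor. Its probe at chr8:109882604-109882663 was the dimmest of the 10, with processed signals of 55.1 in the knockout and 35.2 in the control on array 1, and 38.6 and 55.6 on array 2. Before correction the spot read 95.3 to 161 over local backgrounds of 30 to 43, and it was well above background in each channel. The Cy5 signal was the higher on both arrays, so that the ratios of 0.65 and -0.53 gave a mean of 0.06 ± 0.83 (SD, n = 2 arrays). With no background correction the mean was -0.02. A difference of *Nfat5* RNA smaller than this spread was not detectable here. The other 4 NFAT genes, *Nfatc1* to *Nfatc4*, which answer to calcineurin, had means from -0.20 to -0.07.

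Among 12 genes known to respond to hypertonicity or to vasopressin in the medulla, 11 were on the array, 10 were above background, and 1, *Hspa1a*, passed the size rule. The median of these 10 was 0.18 against -0.01 for all genes. On array 1 alone it was 0.12 and on array 2 alone 0.02, but each of these covers 11 genes. The added gene, *Ptgs2*, was above background in only 1 genotype on each array. Its signals were 6.10 to 16.0 and its ratios 1.39 and -0.48. The single-array medians thus cannot be set directly against 0.18. *Hspa1a*, an inducible heat shock protein whose coding sequence is nearly that of *Hspa1b*, read 1148 against 770 on array 1 and 1445 against 501 on array 2. The ratios were 0.57 and 1.53, with a mean of 1.05 ± 0.67 (SD, n = 2 arrays), and with the offset of 50 the mean was 0.87. *Cryab*, a small heat shock protein abundant in inner medulla, had 0.54 and 0.65 with its brighter probe and 0.08 and 0.84 with the other. *Sgk1*, a kinase raised by salt and aldosterone, had 0.67 and 0.40. *Hspa1a*, *Cryab* and *Sgk1* were thus higher in the knockout on both arrays, *Cryab* and *Sgk1* short of 2-fold. *Avpr2*, *Hspa4l*, *Hspb1*, *S100a4* and *Slc38a2* had means from -0.05 to 0.19. *Aqp2*, the vasopressin-regulated water channel, had -0.75 and 1.09, and its mean of 0.17 ± 1.30 (SD, n = 2 arrays) gave no direction. *Slc14a2*, the vasopressin-regulated urea transporter, had -0.20 and 0.02 with its brightest probe but 2.27 and 2.38 with a dimmer one, so that its probes do not read as one gene.

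Markers of the inner medulla, where aldose reductase is most abundant, gave a median of 0.03 over 5 genes (0.02 on each array alone). Their summed signal was 28187 against 22547 on array 1 and 22802 against 16656.5 on array 2, higher in the knockout on both. *Cryab*, which belongs to this sum, alone read 19399.5 against 13347 on array 1 and 17278 against 11024 on array 2. Its excess was larger than that of the sum, so the other markers together were lower in the knockout on both arrays. *Aqp4* and *Slc4a11* had means of 0.03 and 0.22. The 6 principal cell markers had a median of -0.13 (-0.48 on array 1 and 0.12 on array 2), with summed signals of 22833 and 26164 in the knockout and 28877 and 20979 in the control. Male kidneys hold more of the androgen-driven genes *Cyp4a12a*, *Gusb*, *Odc1*, *Slco1a1* and *Kap*, and the first 4 of these were higher in the knockout on both arrays (means 0.30 to 0.46), whereas *Kap* had -0.10. The Y-linked genes *Ddx3y*, *Eif2s3y* and *Uty* were above background in both genotypes with means of -0.04, 0.16 and 0.12, and *Xist* and *Kdm5d* were not above background. Proximal tubule, thick ascending limb and podocyte markers had medians of 0.14, -0.07 and -0.32, and none of them passed the size rule. On array 1 alone these medians were 0.28, 0.11 and -0.31, and on array 2 alone -0.18, -0.28 and -0.34, so that the first and the second turned with the array. The part of cell makeup or of androgen action in the *Akr1b3* ratio was not tested.

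**Figure D4:**
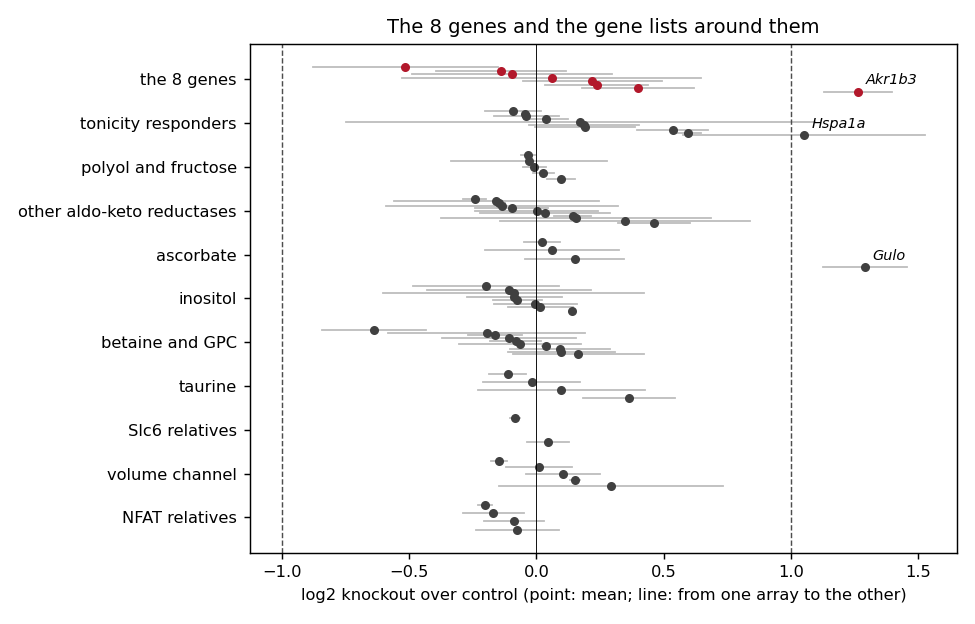
Log2 knockout over control of the 8 genes (red) and of the genes above background in 10 lists (dark gray), with a point at the mean and a line from one array's value to the other's, and dashed lines at 2-fold. *Akr1b3*, *Gulo* and *Hspa1a* have means past 2-fold, and the means of the others lie within it. *Aqp2* spans the longest line among the responders.

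NFAT5 binds a tonicity-responsive element, TonE, whose core is TGGAAA. RefSeq start-site windows (GRCm38.p6, 250 bases before to 50 after the start) were at hand for 6 of the 8 genes in 10 windows. For *Akr1b3* and *Slc6a6* none was at hand. Both strands were searched for the core and, with the core inside it, for the longer TonE consensus. The core was present in 1 of the 10 windows, and in 21.4% of all 32851 windows. That window belongs to *Slc6a12* and also holds a match to the whole consensus, which 4.96% of all windows hold. *Slc6a12* is the only one of the 6 genes with more than 1 window, and some of its windows overlap. It thus had more chances of a match than the others. The match in *Slc6a12* starts 75 bases before the start site, at chr6:121342499-121342509 on the plus strand, and reads TGGAAAACTCC. A match is a run of letters in a window and was not measured as a bound site, and *Slc6a12* was the osmolyte transporter with the highest mean ratio at 0.40, which did not pass the size rule.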

How the data were processed

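Kidney RNA of both genotypes was labeled with Cy3 or Cy5, hybridized to 2 dye-swapped Agilent 4x44K arrays on 1 slide and scanned once. Per the file headers, the deposited intensity values are processed signals, background-subtracted and dye-normalized (linear and lowess) by Feature Extraction 10.7.3.1, whereas the submitters' processing notes name 10.5.1.1. The deposited log10 ratio of the scanner files and the authors' series matrix, also log10 ratios of knockout over control centered near 0, differ from each other by less than 0.005 and served as alternatives. Ratios were turned to knockout over control by the dye labels. Spots with an outlier flag (141 and 175) were left out and spots of 1 probe averaged. Between 62.6% and 68.0% of gene spots were well above background. The array has no counts, and the number of arrays limits precision. Alternatives used limma 3.58.1 in R 4.3.3 and Python 3.11.15. Functions were tested on simulated data. The size rule, named genes and 19 gene lists were written down with earlier results of these data known, as were the 8 genes. Named were all probes of the 8, list genes past the size rule, *Gulo*, *Cnnm2* and the 5 genes nearest *Akr1b3*. Other list genes were named after their values were seen, and a few are not reported here. The study's fold changes and p-values were not used.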

Additional observations from a re-analysis of the deposited data

How the results depend on the processing

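The mean ratio of *Akr1b3* lay between 1.13 and 1.40 under 11 alternatives of background correction, source of the ratio, filter, probe choice and array, and it was at least 2-fold in each. *Akr1b7* stayed below 0 and *Akr1b8* and *Slc6a12* above 0 in all 11, whereas *Akr1a4*, *Slc5a3*, *Slc6a6* and *Nfat5* took both signs. Several of the 11 could not move these values. The filters left all 8 genes in, 0 of their spots were marked, and the deposited ratios restate the processed signals. For the 6 genes with 1 probe, the choice of probe could not move them either. The informative settings were thus the other background corrections and the single arrays. The number of the 8 genes past the size rule was 1 higher and 0 lower in each of these and with 2-fold on each array, 1.5-fold, and the methods' t-test, and 0 after Benjamini-Hochberg. The counts over all genes moved more. Against 62 higher and 56 lower, normexp with an offset of 50 gave 7 and 8, no background correction 12 and 12, no filter on dim probes 232 and 179, and signal above background in both genotypes 37 and 27. At least 2-fold on each array gave 28 and 20, at least 1.5-fold 197 and 209, the methods' t-test 22 and 14, and its Benjamini-Hochberg adjustment 0 and 0. A single array gave 576 to 1098 higher and 633 to 882 lower. Of the pathway lists, 2 genes were higher and 0 lower, against 0 higher with normexp, 1 with no background correction (*Gulo* dropped to 0.82), and 0 to 1 lower with a single array. The offset of 50 shrinks dim genes by construction. The causes of the other changes were not tested. The methods' t-test is paired over the 2 dye swaps of what was counted as 1 replicate per genotype. Its counts thus describe the agreement of the arrays and are not read as variation between mice. Of the list medians, those of the polyol, inositol, betaine, taurine, ascorbate, Slc6, volume channel, other aldo-keto reductase, principal cell, proximal tubule, thick ascending limb and sex chromosome lists had opposite signs on the 2 arrays. A single-array median covers the genes above background on that array, so its genes can differ from those of the main median.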
